A study of Mus musculus with 16 samples.

Results

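The 8 genes of cholesterol synthesis and its control described here were followed in lymph node macrophages: Hmgcs1, Idi1, Fdft1, Sqle, Lss and Cyp51, which encode enzymes, and Srebf2 and Insig1, which encode regulators. They were chosen by name, and make up 8 of the 55421 genes of the count table, of which 21085 were detected well enough to be tested. All 8 passed that filter, and all 8 had a mean normalized count over 100. None of the 8 encodes an uptake protein. Genes of uptake are described after them.

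RNA was sequenced from subcapsular sinus macrophages (SSMs) and medullary sinus macrophages (MSMs) that were flow sorted from tumor-draining lymph nodes (tdLN) and non-draining lymph nodes (ndLN) of male C57B/6 mice. Every mouse carried a MOC2 tumor, a chemically induced squamous cell carcinoma line, implanted intradermally in the flank near the inguinal node 2 weeks earlier, so the ndLN are the contralateral nodes of tumor-bearing mice and no tumor-free mice were sequenced. Per the paper's methods the ndLN joined inguinal, axillary and brachial nodes. Between tdLN and ndLN, tumor drainage and the site of the nodes therefore cannot be told apart. SSMs were live CD45+ CD3- B220- Ly6G- CD11b+ CD169+ CD11c- cells with low side scatter, and MSMs were the CD11c+ cells with high side scatter in the same CD169+ gate. Each of the 4 groups holds 2 libraries, 1 from pool 1 and 1 from pool 2, and each pool joins the nodes of 2 mice (2 tdLN or 6 ndLN), so the values of single mice are not seen. The 8 libraries were each sequenced on 2 lanes. The sample matrix of the study gives the lanes of a library separate pool numbers, but the lanes differed by about the sampling noise (chi-square per degree of freedom between 0.955 and 1.015), so they were summed and counted as 1 library, which gave between 42972328 and 48130352 counted reads per library.

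The macrophage genes Csf1r and Siglec1 (which encodes CD169) were detected in all 8 libraries, but Siglec1 lay between 0.795 and 5.96 CPM (counts scaled to library size, the unit of all levels below) in the 4 MSM libraries and between 8.47 and 70.0 CPM in the 4 SSM libraries, although both subsets were sorted as CD169+. Of 13 macrophage markers 3 were higher (Siglec1, Csf1r and H2-K1) and 2 lower (Mertk and Cd68) in SSMs in ndLN. In tdLN 5 of the 13 were higher in SSMs and none lower. Markers of other cells moved with the subset. Of 11 T cell markers 10 were higher and Cd8a was lower in SSMs in ndLN. Their summed level lay between 1018 and 2535 CPM in SSMs and between 492 and 824 CPM in MSMs. Most of the sum in MSMs was Cd8a, at 357 to 605 CPM there against 10.0 to 25.7 CPM in SSMs. The median log2 fold change of the 11 in SSMs against MSMs was 3.27 in ndLN and 4.55 in tdLN. Innate-like lymphocyte markers were higher in SSMs for 10 of 10 in ndLN and 9 of 10 in tdLN. Their summed level lay between 722 and 2356 CPM in SSMs and between 38.2 and 90.4 CPM in MSMs. Of 10 dendritic cell markers 7 were lower in SSMs in ndLN and 9 in tdLN, with a summed level in SSMs (between 1568 and 3108 CPM) below that in MSMs (between 5608 and 7088 CPM). Of 10 basophil and mast cell markers 6 were higher in SSMs in each node and Kit was lower in SSMs in tdLN, and Ms4a2, Fcer1a and Prss34 had no count in MSMs from tdLN. The part of these cells in the results below was not tested, and in bulk RNA fewer cells of a type and less RNA per cell cannot be told apart.

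Cholesterol is built from acetyl-CoA through mevalonate, isoprenoid diphosphates, squalene and lanosterol. When the sterol content of the endoplasmic reticulum is low, the precursor of SREBP2, the transcription factor encoded by Srebf2, is escorted by SCAP to the Golgi and cleaved, and the released factor enters the nucleus and activates the enzyme genes, uptake genes, Insig1 and Srebf2 itself. When sterol is plentiful, INSIG proteins hold SCAP and its cargo back, and the nuclear receptors of the LXR family activate genes of cholesterol efflux such as Abca1. Macrophages also receive cholesterol from the particles and cells they engulf.

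The stretches before the gene starts are shown because SREBP2 and its partner NF-Y act at such sites on many genes of the pathway, and because the 4 genes shown behaved differently below: Srebf2 and Idi1 passed the test between the subsets, whereas Hmgcs1 and Insig1 did not. They are the 250 bases before the RefSeq start of each gene on GRCm38.p6, on the strand of the gene. Srebf2 covers chr15:82147019-82147268 (plus strand), Idi1 covers chr13:8885356-8885605 (plus strand), Hmgcs1 covers chr13:119690101-119690350 (plus strand) and Insig1 covers chr5:28071162-28071411 (plus strand). Capitals mark matches on either strand to CACNCCAC (the core of a sterol regulatory element), CCAAT (the NF-Y box) or CACGTG (an E-box).
Srebf2: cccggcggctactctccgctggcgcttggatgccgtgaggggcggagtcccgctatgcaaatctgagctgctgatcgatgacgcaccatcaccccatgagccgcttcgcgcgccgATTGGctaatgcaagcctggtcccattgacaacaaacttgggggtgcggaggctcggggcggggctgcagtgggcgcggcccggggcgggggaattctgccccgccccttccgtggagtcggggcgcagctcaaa
Idi1: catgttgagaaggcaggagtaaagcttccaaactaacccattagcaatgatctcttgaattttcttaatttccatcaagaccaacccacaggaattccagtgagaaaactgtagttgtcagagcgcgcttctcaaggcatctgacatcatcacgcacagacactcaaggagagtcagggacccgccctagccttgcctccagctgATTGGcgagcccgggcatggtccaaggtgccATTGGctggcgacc
Hmgcs1: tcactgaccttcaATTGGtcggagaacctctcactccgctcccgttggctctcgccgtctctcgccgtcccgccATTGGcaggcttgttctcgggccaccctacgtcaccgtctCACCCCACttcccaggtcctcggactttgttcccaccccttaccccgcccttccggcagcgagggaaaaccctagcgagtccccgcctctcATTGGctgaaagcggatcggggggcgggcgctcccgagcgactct
Insig1: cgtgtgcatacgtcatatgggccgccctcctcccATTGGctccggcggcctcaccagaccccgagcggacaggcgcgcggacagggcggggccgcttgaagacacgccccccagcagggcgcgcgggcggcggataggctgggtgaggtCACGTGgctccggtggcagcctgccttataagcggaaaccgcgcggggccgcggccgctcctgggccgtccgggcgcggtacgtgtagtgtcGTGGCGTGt
Such a stretch was available for 6 of the 8 genes, not including Sqle and Fdft1. CCAAT was found in 6 of 6, and in 11 of 12 genes of other synthesis enzymes, against 33.85% of 32851 stretches of the same length over all genes. The lists were counted by gene, where any stretch of a gene could match, and the share over all genes by stretch. CACNCCAC was found in Hmgcs1, between 136 and 129 bases before the start, and in Insig1, between 9 and 2 bases before it, that is in 2 of 6 against 5.288% of all stretches. Lss and Cyp51, whose stretches are not shown, held no CACNCCAC and also did not pass between the subsets. Whether a match goes with the result of the test was not tested. CACGTG was found in Insig1 alone among the 6, and in 6.021% of all stretches. These matches describe letters, not binding. Only exact matches were counted, so any element that departs from these letters would be missed.

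Srebf2 was the member with the clearest difference between the subsets. In ndLN it stood at 110 and 128 CPM in the SSM libraries and at 361 and 318 CPM in the MSM libraries. In tdLN it stood at 112 and 112 CPM in SSMs and at 319 and 366 CPM in MSMs. All 4 SSM libraries lay below all 4 MSM libraries, with no overlap. The log2 fold change of SSMs against MSMs was -1.52 ± 0.15 (SE) in ndLN, an adjusted p of 0.000326 by edgeR's quasi-likelihood test, and -1.61 ± 0.15 in tdLN, an adjusted p of 0.000389, which are 2.86-fold and 3.04-fold lower levels. Between tdLN and ndLN the difference was smaller than the spread between libraries: the log2 fold change was -0.08 (95% interval from -0.42 to 0.26) in SSMs and 0.01 (from -0.32 to 0.34) in MSMs. The gene lies at chr15:82147181-82205379 on mm10, and 0.396% of its 50-base windows occur in other genes. Without SSM_tdLN replicate 1 or 2 the tdLN call was narrowly lost, with adjusted p-values of 0.0107 and 0.0128.

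**Figure D1:**
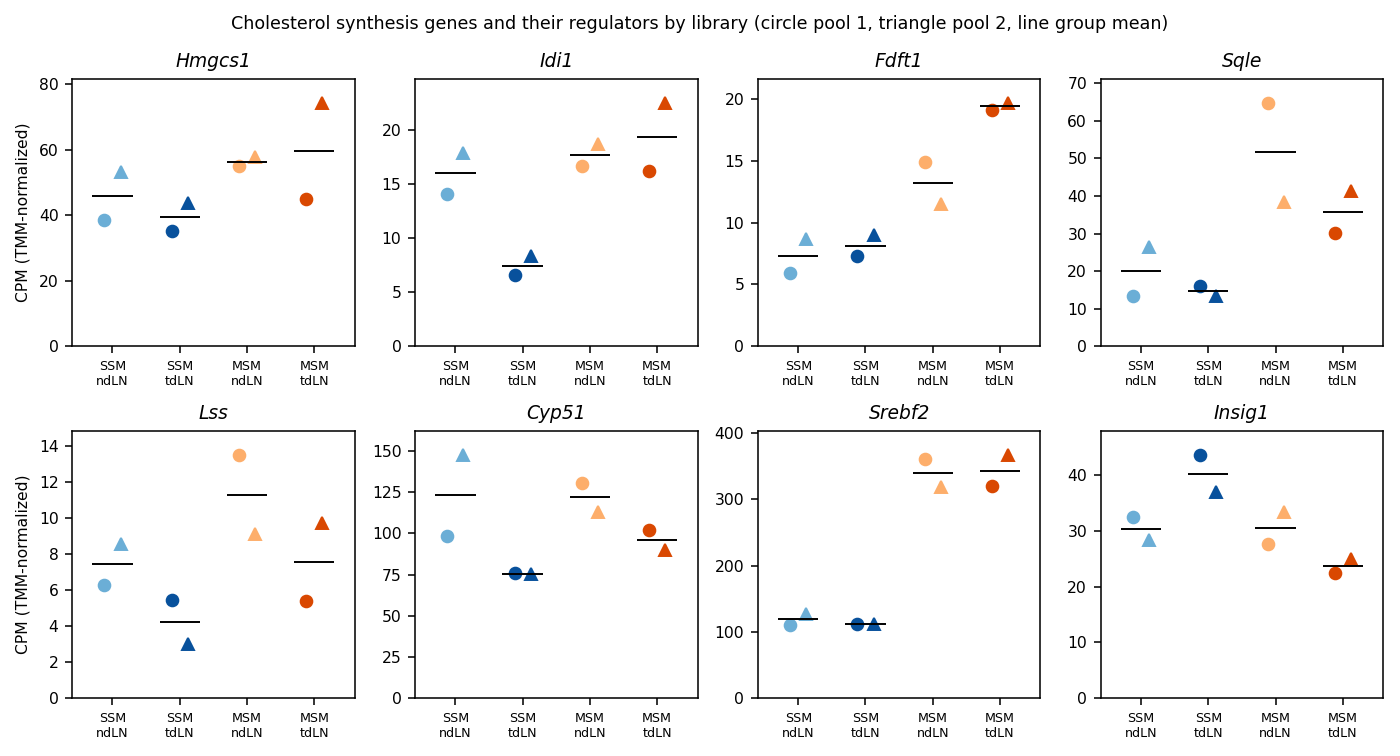
CPM (TMM-normalized, linear axis from 0) of the 8 genes in the 8 libraries, with SSMs in blue and MSMs in orange, circles for pool 1, triangles for pool 2 and a line for the mean of each group. Srebf2 separates the subsets in both nodes, Idi1 is low in SSMs from tdLN, at 6.59 and 8.37 CPM, and Insig1 is highest there, at 43.5 and 36.9 CPM.

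Insig1, which encodes the protein that retains the SCAP and SREBP complex and is itself switched on by SREBP2, followed another order. It stood at 32.4 and 28.3 CPM in SSMs from ndLN, at 27.6 and 33.3 CPM in MSMs from ndLN, at 43.5 and 36.9 CPM in SSMs from tdLN and at 22.5 and 24.9 CPM in MSMs from tdLN. The ndLN libraries of the subsets overlapped, whereas both tdLN libraries of SSMs lay above both of MSMs. The log2 fold change of SSMs against MSMs was -0.01 ± 0.19 in ndLN and 0.76 ± 0.20 in tdLN, where the adjusted p was 0.0363 and missed the threshold of 0.01. The difference between the nodes in this contrast, the interaction, was 0.76 ± 0.28 with an adjusted p of 0.304. Insig1 was the sole member with a positive value in tdLN.

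Hmgcs1 encodes the cytosolic synthase that makes HMG-CoA, an early step of the mevalonate route. It stood at 38.5 and 53.1 CPM in SSMs from ndLN, 35.1 and 43.8 CPM in SSMs from tdLN, 55.0 and 57.7 CPM in MSMs from ndLN and 44.9 and 74.2 CPM in MSMs from tdLN. The SSM libraries lay below the MSM libraries in each node, but the log2 fold changes, -0.32 ± 0.19 in ndLN and -0.57 ± 0.19 in tdLN, did not pass (adjusted p of 0.272 and 0.0920). The pair of MSM libraries from tdLN differed more from each other, by 1.65-fold, than the subsets did on average. In 11.57% of its windows the sequence of Hmgcs1 occurs in other genes, and it overlaps the antisense gene Gm48342, which has 17 counts in all against 18155 for Hmgcs1.

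Idi1 encodes the isomerase that interconverts the isoprenoid diphosphates, and it differed between the subsets in tdLN. It stood at 14.1 and 17.9 CPM in SSMs from ndLN and at 6.59 and 8.37 CPM in SSMs from tdLN. MSMs stood at 16.7 and 18.7 CPM in ndLN and at 16.2 and 22.5 CPM in tdLN. The SSM libraries from tdLN were the lowest of the 8, and the other 3 groups overlapped. In tdLN the log2 fold change of SSMs against MSMs was -1.37 ± 0.21 (2.58-fold lower), with an adjusted p of 0.00383 by edgeR's quasi-likelihood test, and in ndLN it was -0.15 ± 0.19 (adjusted p of 0.630). In SSMs the change from ndLN to tdLN was -1.10 ± 0.21, with an adjusted p of 0.0191 that missed the threshold, and in MSMs it was 0.12 ± 0.19. The interaction was -1.22 ± 0.29 with an adjusted p of 0.119, so the difference between nodes in the subset contrast did not pass. The tdLN call was lost without SSM_tdLN replicate 1 (0.0546) or 2 (0.0593) and without MSM_tdLN replicate 1 (0.0253) or 2 (0.0532). In 25.29% of its windows Idi1 shares sequence with other genes, Gm13502 among them. How reads of such windows were counted is not given in the sources used here, so their part in the counts of Idi1 is uncertain.

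Fdft1 encodes squalene synthase, which commits the pathway to sterols. It stood at 5.96 and 8.69 CPM in SSMs from ndLN, 7.29 and 8.99 CPM in SSMs from tdLN, 14.9 and 11.5 CPM in MSMs from ndLN and 19.1 and 19.7 CPM in MSMs from tdLN. The subsets did not overlap in either node, with log2 fold changes of -0.86 ± 0.27 in ndLN (adjusted p of 0.0612) and -1.26 ± 0.27 in tdLN (adjusted p of 0.0165), and neither passed. Without the replicate block the tdLN value was -1.25 with an adjusted p of 0.00877, which passes. Fdft1 lies at chr14:63145150-63179578 and shares 774 exon bases on the opposite strand with the cathepsin gene Ctsb, which has 467025 counts in all against 4251 for Fdft1. The strand setting of the counting is not given in the sources used here, so reads of the shared bases cannot be assigned with certainty. The log2 fold change of Ctsb in SSMs against MSMs was -0.19 in ndLN, with the sign of Fdft1, and 0.92 in tdLN, with the opposite sign. The part of shared reads in the values of Fdft1 was not tested.

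Sqle encodes squalene epoxidase, an oxygen-dependent and rate-limiting step. It stood at 13.4 and 26.5 CPM in SSMs from ndLN, 16.2 and 13.5 CPM in SSMs from tdLN, 64.7 and 38.5 CPM in MSMs from ndLN and 30.2 and 41.3 CPM in MSMs from tdLN. The 4 SSM libraries lay below the 4 MSM libraries. The log2 fold changes of SSMs against MSMs were -1.39 ± 0.38 in ndLN and -1.26 ± 0.39 in tdLN. The libraries of SSMs from ndLN differed 1.97-fold from each other, and the adjusted p-values of 0.0350 and 0.0716 missed the threshold. The ndLN value was -0.79 without MSM_ndLN replicate 1 and -2.015 without SSM_ndLN replicate 2. Sqle shares almost no sequence with other genes (2 of 5591 windows).

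Lss encodes lanosterol synthase, which closes the sterol rings. It had the lowest counts of the 8 when summed over the libraries, although Fdft1 was lower in 1 library, that of SSMs from ndLN in pool 1. It stood at 6.29 and 8.59 CPM in SSMs from ndLN, 5.45 and 3.03 CPM in SSMs from tdLN, 13.5 and 9.09 CPM in MSMs from ndLN and 5.38 and 9.73 CPM in MSMs from tdLN. The subsets did not overlap in ndLN and overlapped in tdLN. The log2 fold changes of SSMs against MSMs were -0.60 ± 0.40 in ndLN and -0.84 ± 0.46 in tdLN (adjusted p of 0.322 and 0.288). The 95% interval in tdLN runs from -1.90 to 0.22 and holds both an equal level and one more than 3-fold lower. Without MSM_tdLN replicate 2 the tdLN value was -0.23.

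Cyp51 encodes the lanosterol demethylase, which acts after ring closure. It stood at 98.7 and 147 CPM in SSMs from ndLN, 75.9 and 75.1 CPM in SSMs from tdLN, 131 and 113 CPM in MSMs from ndLN and 102 and 90.1 CPM in MSMs from tdLN. Both subsets were lower in tdLN without overlap, by -0.70 ± 0.21 in SSMs (adjusted p of 0.0872) and -0.34 ± 0.21 in MSMs (adjusted p of 0.572), and neither passed. Between the subsets the log2 fold change was 0.01 ± 0.21 in ndLN and -0.35 ± 0.21 in tdLN. Cyp51 shares 166 exon bases with Akap9 on the opposite strand.

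Of the 8 members, 1 (Srebf2) was lower in SSMs than in MSMs in ndLN, where 12.1% of all genes tested passed (6.01% higher and 6.06% lower). In tdLN 2 of 8 (Srebf2 and Idi1) were lower, where 8.69% of all genes passed (5.16% higher and 3.53% lower). The median log2 fold change of the 8 was -0.46 in ndLN against 0.09 over all genes tested, and -1.05 in tdLN against 0.02. Only genes with a mean count over 100 can pass, a condition that all 8 meet. Among the 9996 such genes 2546 passed in ndLN (1278 lower) and 1833 in tdLN (744 lower), with medians of -0.06 and 0.01. In ndLN 7 of 8 values were below 0, a count that includes Insig1 at -0.01, which turned to 0.04 with the size factors of DESeq2, and in tdLN 7 of 8 were below 0. The subsets did not overlap for 5 of 8 members in ndLN and for 7 of 8 in tdLN, where 57.2% and 56.6% of all genes tested did not overlap. The share in ndLN is close to that of all genes.

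**Figure D2:**
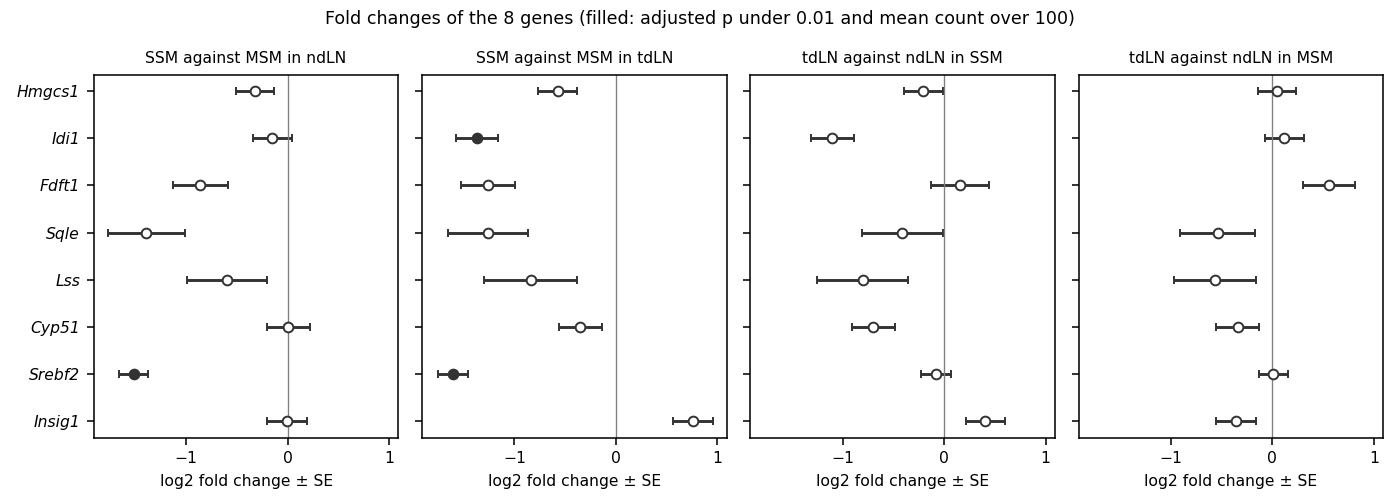
Log2 fold changes (edgeR fit of all 8 libraries, bars show ± 1 SE) of the 8 genes in 4 comparisons, with filled points where the adjusted p was under 0.01 and the mean count over 100. The filled points are Srebf2 in ndLN (-1.52), and Srebf2 (-1.61) and Idi1 (-1.37) in tdLN, all in the subset contrasts.

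In the comparison of tdLN with ndLN, no member passed in either subset by edgeR's quasi-likelihood test. In SSMs 3.04% of all genes passed (1.99% higher and 1.05% lower), 2 of 8 members (Idi1 and Cyp51) had an unadjusted p under 0.05, and a DESeq2 Wald test on the same libraries called the same 2. The median of the 8 was -0.31 against -0.04 over all genes and 0.05 over the 9996 with a mean count over 100. The SSM libraries of the nodes did not overlap for 4 of 8 members (Idi1, Cyp51, Lss and Insig1), against 51.9% of all genes, and Insig1 was the one of these that stood higher in tdLN. Markers of other cells also moved between the nodes in SSMs. The summed innate-like lymphocyte markers lay between 1875 and 2356 CPM in ndLN and between 722 and 818 CPM in tdLN (5 of 10 passed as lower), and the summed T cell markers between 2308 and 2535 CPM and between 1018 and 1170 CPM (3 of 11 passed as lower). Basophil and mast cell markers summed to between 1882 and 2636 CPM in ndLN and between 404 and 730 CPM in tdLN. Of these 10, 2 passed as lower and 1 as higher. Summed dendritic cell markers lay between 2412 and 3108 CPM and between 1568 and 2083 CPM, and none passed. Summed B cell markers were higher in tdLN, between 961 and 990 CPM against 315 to 403 CPM in ndLN (2 of 9 passed as higher). The part of these cells in the lower levels of Idi1 and Cyp51 was not tested. In MSMs 0.0237% of all genes (5 in all, and 9 without the replicate block) passed, 0 of 8 members had an unadjusted p under 0.05, DESeq2 called none of the 8, and 3 of 8 (Cyp51, Fdft1 and Insig1) did not overlap against 38.5% of all genes. For the interaction of subset and node 0.0379% of all genes (8 in all) passed. None of the 8 members passed it, 2 (Idi1 and Insig1) had an unadjusted p under 0.05, and DESeq2 called 1, Idi1.

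On a scale of CPM per kilobase of exon, which allows genes to be compared, Srebf2 and Cyp51 led the 8 in every group and Lss was last. In MSMs Srebf2 came first, at 47.3 ± 4.2 (SD, n = 2) CPM per kilobase in ndLN and 47.7 ± 4.6 in tdLN, ahead of Cyp51 at 27.6 ± 2.9 and 21.8 ± 1.9. In SSMs Cyp51 came first, at 27.9 ± 7.8 in ndLN and 17.1 ± 0.13 in tdLN, and Srebf2 followed at 16.6 ± 1.7 and 15.6 ± 0.015. With the length of the longest transcript in place of all exons, 22 levels of the 8 genes in the 4 groups moved by at least their SD and 10 by less. Srebf2 in MSMs from ndLN, for example, then stood at 66.9. By that length Srebf2 led Cyp51 in SSMs from tdLN (22.1 against 19.2), so the order of these neighbours is not settled there. By all exons Hmgcs1 and Insig1 took the next places, in that order in 3 groups and reversed in SSMs from tdLN (8.59 ± 1.3 and 13.0 ± 1.5). In MSMs from ndLN Insig1 (9.83 ± 1.3) and Sqle (9.30 ± 3.3) did not differ beyond their spread, and with the longest transcript Sqle came before Insig1 (11.5 and 11.3). In SSMs from ndLN Hmgcs1 and Insig1 did not differ beyond their spread, at 9.97 ± 2.2 and 9.81 ± 0.94. Idi1 and Sqle otherwise followed, then Fdft1 at 1.73 to 4.59, and Lss at 0.393 to 1.05 CPM per kilobase.

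The libraries of a group moved apart in a shared direction for most members in 2 of the 4 groups. In SSMs from ndLN the pool 2 library lay above pool 1 for 7 of 8 members (all but Insig1), and in MSMs from tdLN for 7 of 8 (all but Cyp51). Over the 9996 genes with a mean count over 100 the share was 51.75% and 46.35%. In SSMs from tdLN and in MSMs from ndLN it was 3 of 8 each, against 47.47% and 42.75% of the 9996 genes. Among 15 other enzymes of the pathway the pool 2 library lay above in 11, 6, 3 and 10 in SSMs from ndLN, SSMs from tdLN, MSMs from ndLN and MSMs from tdLN.

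Over the 8 libraries, Sqle followed the mean of the other 7 members most closely (Pearson r = 0.946) and Insig1 ran against it (r = -0.755). These are descriptions over 8 libraries that share the subset contrast. The 5 genes outside the lists whose log2 CPM ran closest to the mean pattern of the 8, among 9853 genes, were Gstz1 (r = 0.985), Gm43305 (r = 0.977), Rbm14 (r = 0.973), Ddx56 (r = 0.971) and Dock5 (r = 0.966). By group mean all 5 were highest in MSMs from ndLN and lowest in SSMs from tdLN, as in Gm43305 with 67.1 and 52.8 CPM against 15.3 and 16.0 CPM.

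The other 15 enzymes of cholesterol synthesis differed in both directions. In ndLN 2 were higher in SSMs (Mvk and Lbr) and 1 lower (Pmvk), and in tdLN 1 was higher (Lbr) and none lower by edgeR (3 at an unadjusted p under 0.05, 1 by DESeq2). The median log2 fold change of the 15 was -0.03 in ndLN and -0.17 in tdLN. Mvk, which encodes mevalonate kinase, stood at 78.9 and 106 CPM in SSMs from ndLN, 22.6 and 20.6 CPM in SSMs from tdLN, and between 10.8 and 13.4 CPM in the 4 MSM libraries. It was 2.93 ± 0.23 higher on the log2 scale in SSMs than in MSMs in ndLN and fell by 2.09 from ndLN to tdLN in SSMs (adjusted p of 0.000117 and 0.00230). The summed levels of innate-like lymphocyte, T cell, basophil and mast cell, and dendritic cell markers were also lower in SSMs from tdLN, as given above. Their part in this fall and in those of Gramd1a, Gpr183 and Elovl5 below was not tested. Pmvk, the next kinase of the route, was the reverse, at 13.3 and 9.26 CPM in SSMs and 31.6 and 36.2 CPM in MSMs from ndLN (log2 fold change of -1.58 ± 0.23). Lbr, which encodes both a sterol reductase and a nuclear envelope protein, stood at 248 and 309 CPM in SSMs and 146 and 112 CPM in MSMs from ndLN (1.12 ± 0.18).

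**Figure D3:**
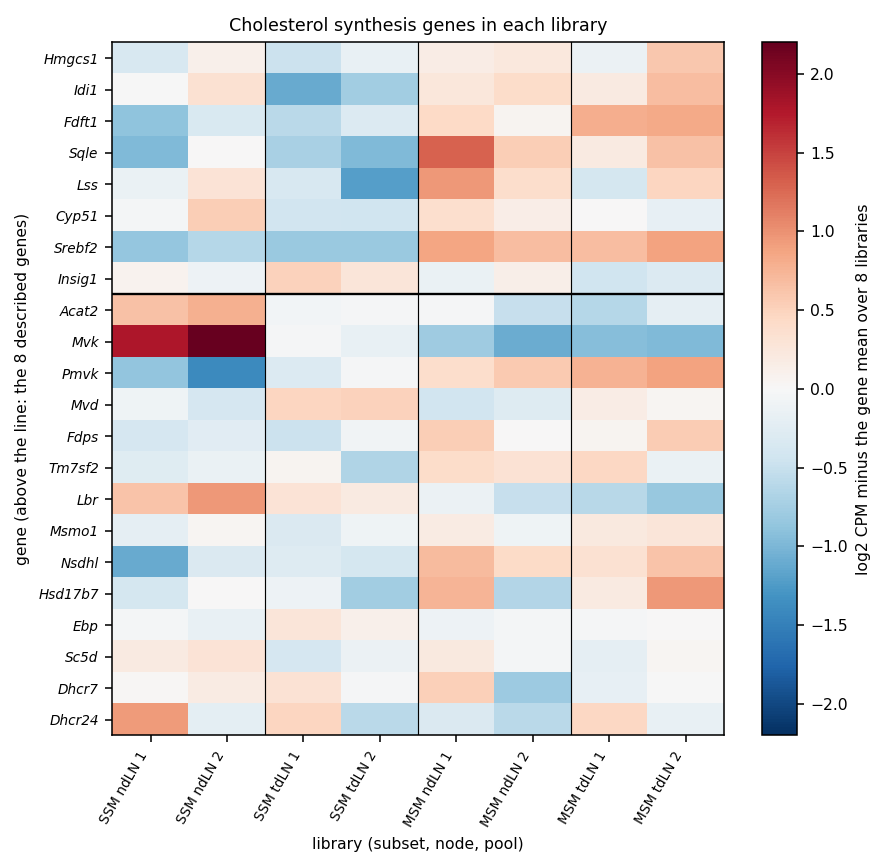
Log2 CPM minus the mean of each gene over the 8 libraries (red above, blue below), for the 8 described genes above the line and 14 other synthesis enzymes below it, with libraries in columns by subset, node and pool. Srebf2 is blue in SSMs and red in MSMs. Fdft1 and Sqle are too, except for 1 nearly white cell each. For Fdft1 it is in MSMs from ndLN (11.5 CPM) and for Sqle in SSMs from ndLN (26.5 CPM). Mvk is red in SSMs from ndLN, at 78.9 and 106 CPM.

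Srebf1, which encodes the related factor SREBP1, was not called in any comparison, with log2 fold changes of 0.12 ± 0.25 in ndLN and 0.30 ± 0.25 in tdLN. Of the 9 other genes of sterol sensing and SREBP processing, 1 passed in ndLN, Insig2, the relative of Insig1, which was lower in SSMs (15.0 and 14.5 CPM against 28.5 and 31.0 CPM in MSMs, log2 fold change of -1.01 ± 0.18).

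Of 15 uptake and lysosomal release genes 14 were tested. In ndLN 3 were higher and 3 lower in SSMs, in tdLN 5 were higher and none lower by edgeR (1 at an unadjusted p under 0.05, 1 by DESeq2), and from ndLN to tdLN in SSMs 3 rose and 1 fell. Lrp1, an endocytic receptor of lipoprotein particles, was higher in SSMs in tdLN (2.40 ± 0.19). Gramd1a, which moves cholesterol from the plasma membrane, was higher in SSMs in ndLN (2.04 ± 0.17) and fell by 1.09 in SSMs from ndLN to tdLN. Scarb1, the scavenger receptor for HDL, was lower in SSMs in ndLN (-1.21 ± 0.15), as was Npc2, the lysosomal carrier of cholesterol (-1.11 ± 0.21), and Scarb1 rose by 1.62 ± 0.15 from ndLN to tdLN in SSMs.

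Efflux genes and targets of LXR that passed were all higher in SSMs, or higher in tdLN. Of 11 such genes 10 were tested, and Apoc2 had no count in any library. In ndLN 3 were higher in SSMs, in tdLN 6 were, and from ndLN to tdLN in SSMs 2 rose, with none lower in any of these by edgeR (1, 1 and 0 at an unadjusted p under 0.05, and 0 by DESeq2 in each). Abca1, which exports cholesterol to apolipoproteins, stood at 56.5 and 35.8 CPM in SSMs and 4.56 and 8.96 CPM in MSMs from ndLN, and at 53.7 and 55.8 CPM in SSMs and 10.3 and 9.18 CPM in MSMs from tdLN (log2 fold changes of 2.74 ± 0.35 and 2.49 ± 0.33). Lpcat3, a phospholipid remodelling enzyme, was 1.34 ± 0.17 higher in SSMs in ndLN, and Apoe, an apolipoprotein, 1.87 ± 0.21 higher in tdLN. Pltp, the phospholipid transfer protein, rose by 2.82 ± 0.23 and Nr1h3, which encodes LXR alpha, by 2.40 ± 0.24 from ndLN to tdLN in SSMs. The summed level of 13 macrophage markers also stood higher in SSMs from tdLN (between 29856 and 37247 CPM) than in SSMs from ndLN (between 17026 and 20987 CPM), with 8 of 13 past the test. Its part in these changes was not tested.

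**Figure D4:**
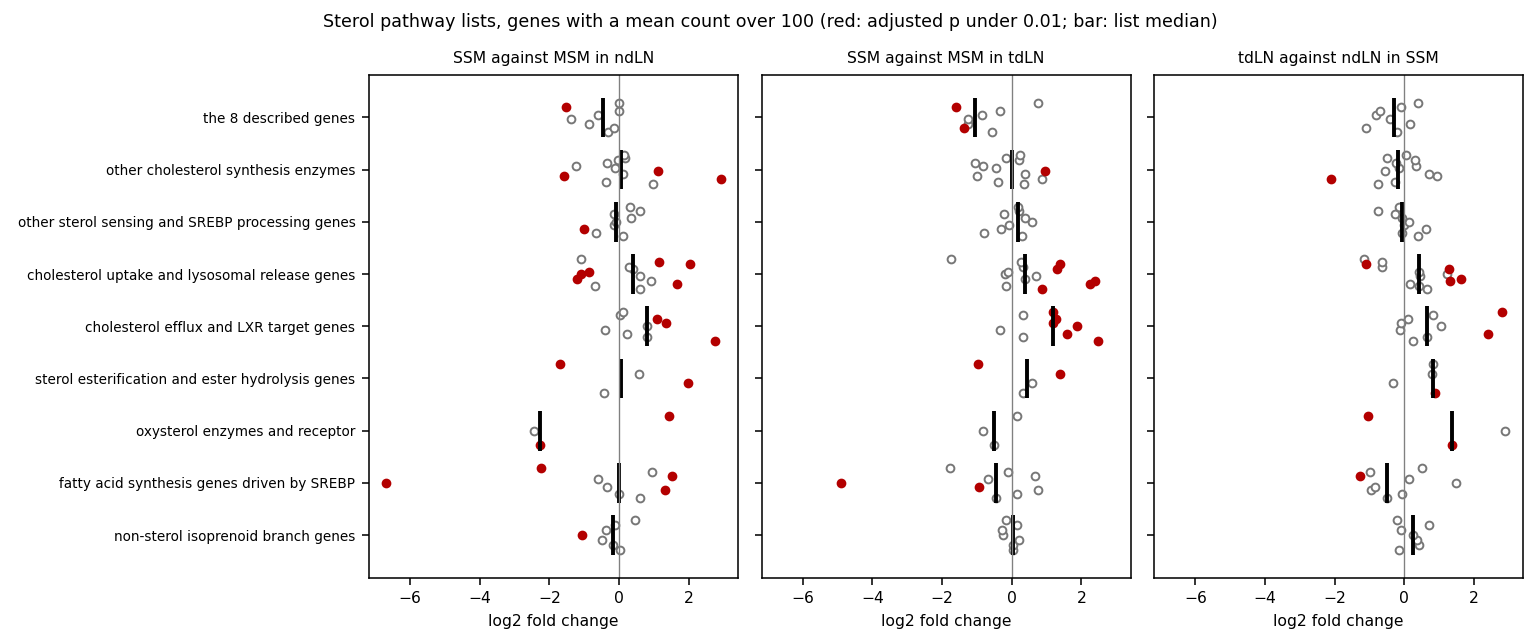
Log2 fold change of each gene with a mean count over 100 in 9 lists of sterol and lipid genes, in 3 comparisons, with red points for genes that passed and a bar at the median of the points shown. The 8 described genes lie mostly below 0 in tdLN and the efflux genes mostly above, as with Srebf2 at -1.61 and Abca1 at 2.49.

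The remaining lists were smaller or mixed. Of 5 esterification genes, the acyltransferase gene Soat2 was higher (1.97 ± 0.36) and the hydrolase gene Lipe lower (-1.71 ± 0.18) in SSMs in ndLN, Nceh1 was higher (1.40 ± 0.17) and Lipe lower (-0.98 ± 0.17) in tdLN, and Soat1 rose by 0.88 ± 0.14 from ndLN to tdLN in SSMs. Of 7 oxysterol genes 6 were tested, and in SSMs from ndLN the oxysterol receptor gene Gpr183 was higher (1.43 ± 0.15) and the sterol hydroxylase gene Cyp27a1 lower (-2.27 ± 0.21) than in MSMs. In SSMs from ndLN to tdLN, Cyp27a1 rose by 1.36 ± 0.21 and Gpr183 fell by 1.05. Of 11 fatty acid synthesis genes, Elovl5 (1.52 ± 0.18) and Acss2 (1.32 ± 0.24) were higher and Scd1 (-6.70 ± 0.37) and Fads1 (-2.24 ± 0.43) lower in SSMs in ndLN, Scd1 (-4.91 ± 0.32) and Fasn (-0.93 ± 0.16) were lower in tdLN, and Elovl5 fell by 1.28 from ndLN to tdLN in SSMs. Scd1, the stearoyl-CoA desaturase, stood at 0.423 to 3.26 CPM in the SSM libraries and 60.9 to 86.8 CPM in the MSM libraries. Of 10 genes of the non-sterol isoprenoid branch 1 passed, Coq2 of ubiquinone synthesis, lower in SSMs in ndLN (-1.06 ± 0.14). In MSMs between tdLN and ndLN, and for the interaction, no gene of any of these lists passed by edgeR's quasi-likelihood test, whereas of the 88 genes tested in all 9 lists 11 and 29 had an unadjusted p under 0.05, and DESeq2 called 4 and 8. Of the calls in these lists, 6 of 23 in ndLN (Cyp27a1, Mvk, Lipe, Gramd1a, Srebf2 and Scd1), 3 of 18 in tdLN (Lrp1 and Scd1 among them) and 0 of 11 between nodes in SSMs were kept without each library in turn.

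Genes of the cell cycle moved in the direction of most members. Of 12 such genes, 7 were lower in SSMs in ndLN and 8 in tdLN, and their summed level lay between 278 and 363 CPM in the SSM libraries and between 642 and 808 CPM in the MSM libraries. Cdk1, for example, had log2 fold changes of -2.07 ± 0.26 and -2.57 ± 0.27. Proliferating cells make sterol for new membrane, and the part of cell division in the levels of Srebf2, Idi1, Fdft1 and Sqle was not tested.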

How the data were processed

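Raw counts per gene were deposited for 16 samples, without normalization. Per the labels and the paper's methods, the authors made libraries from sorted cells with the SMART-Seq v4 kit, and the submitters' processing notes name bcl2fastq 2.20.0.422, Trimmomatic 0.36, STAR 2.5.3a and the build GRCm38. The strand setting and counting mode are not given in the sources used here. Every column was mapped to a sample. Rows of 2 added sequences (6 and 0 counts) were left out. Gene positions came from GENCODE M21, which matched 55240 IDs, and promoter sequences from RefSeq on GRCm38.p6.

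Lanes were summed because the chi-square per degree of freedom between lanes, over genes with at least 20 counts, was 0.955 to 1.015, against 29.28 to 53.09 between the libraries of a group. Genes with at least 10 counts in all and detection in at least 2 of 16 samples were normalized by TMM and fitted with group and pool over all 8 libraries in edgeR 4.0.16 (R 4.3.3). Contrasts were tested by its quasi-likelihood test with Benjamini-Hochberg adjustment over 21085 genes. A gene passed at an adjusted p under 0.01 and a mean normalized count over 100 on the scale of 1 lane. Intervals (95%) use the t distribution with the degrees of freedom of that test. In a library, 3 counts equal 0.0623 to 0.0698 CPM, a limit set by counting error only. P-values measure the spread between libraries that is left after group and pool are fitted, estimated with information shared across genes. Each library comes from a pool of 2 mice.

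Pool is in the model because the study's models hold it. The labels number the nodes of each library 1 or 2, and the study's methods say that each pool gave all 4 groups. The methods count 4 pools, however, and the sample matrix gives the lanes of a library separate pool numbers. It puts libraries numbered alike in the labels into the same pools. Pool therefore means the number in the labels here, with 2 pools, and that same-numbered libraries share mice rests on these sources. Same-numbered libraries nevertheless deviated together weakly, with correlations from -0.193 to 0.148 over 10000 genes.

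The 8 genes and all lists were chosen with earlier results of these data known. Named genes are the 8 and Srebf1, and of each other list up to 2 per direction with the largest change among those that passed. Some genes of these lists are counted but their values are not reported here. The model without pool, DESeq2 1.42.0, its size factors, no filter, the legacy quasi-likelihood fit, only the groups compared, another gene length and each library left out were tried. The fit was tested on simulated data. Tables and figures used Python 3.11, pandas 2.3.3, numpy 2.4.6, scipy 1.17.1 and matplotlib 3.10.9.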

Additional observations from a re-analysis of the deposited data

How the results depend on the processing

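The call of Srebf2 in ndLN was kept under every alternative except the fit of only the groups compared (adjusted p of 0.012), and without any single library (0.00147 to 0.00516). The number of the 8 members that passed changed as follows. In ndLN it was 2 with a DESeq2 Wald test (Sqle added) and 0 with only the groups compared. In tdLN it was 5 with DESeq2 (Fdft1, Insig1 and Sqle added), 1 with only the groups compared, and 0 to 2 without each library. DESeq2 called 2 in SSMs between nodes (Idi1 and Cyp51) and 1 in the interaction (Idi1). Without a replicate block Fdft1 was added in tdLN (adjusted p of 0.00877), and the block changed no other call of the 8.

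Over all genes, only the groups compared gave 944 calls in ndLN (6524 at an unadjusted p under 0.05), and 0 between nodes in SSMs (4789) and in MSMs (2729). DESeq2 gave 3030 calls in tdLN, 1973 between nodes in SSMs, 503 in MSMs and 706 for the interaction, for which its size factors gave 4. Between nodes in MSMs the legacy fit gave 23 and the fit without a replicate block 9. Without each library the counts were 1081 to 2007 in ndLN, 508 to 1883 in tdLN, 2 to 345 between nodes in SSMs, 0 to 3 in MSMs and 0 to 0 for the interaction, where fewer samples were fitted. For the other counts the cause was not tested.

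These changes, none of which passed, turned sign. Insig1 in ndLN was 0.0402 with DESeq2, 0.0388 with its size factors and 0.0704 with only the groups compared. Srebf2 between nodes in MSMs was -0.0214 with DESeq2 and -0.0212 with its size factors. Without each library the log2 fold changes in ndLN ran from -0.37 to 0.35 for Cyp51, -0.18 to 0.19 for Insig1 and -0.31 to 0.63 for Srebf1. Between nodes in SSMs they ran from -0.11 to 0.46 for Fdft1, -0.94 to 0.23 for Sqle and -0.181 to 0.0247 for Srebf2. Between nodes in MSMs they ran from -0.19 to 0.26 for Hmgcs1, -1.08 to 0.0797 for Sqle, -0.15 to 0.17 for Srebf2 and -0.21 to 0.73 for Srebf1. For the interaction they ran from -0.45 to 0.72 for Sqle, -0.80 to 0.35 for Lss, -0.692 to 0.0244 for Cyp51, -0.248 to 0.0687 for Srebf2 and -0.33 to 0.61 for Srebf1. The alternatives that kept all libraries of a group were also followed for the 8 members, Srebf1 and the listed genes that passed in a comparison. Of these fold changes, 108 kept their sign and lost the call, and 8, all of members, gained it. Listed genes that had not passed were left out of this count, so a gain among them could not appear in it.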
